A study of Mus musculus with 15 samples.

Results

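Srebf1 and the genes that regulate or carry out fatty acid and sterol synthesis, 34 in all, were followed in whole kidney RNA of Grhl1 knockout and wild-type mice. The 34 genes were listed by role, and the probe set with the highest mean over all samples stood for a gene. Of the 34, 32 had a probe set annotated to them alone, among 22180 genes on the array table. They were all 6 regulators, 13 of 14 genes of the fatty acid arm and 13 of 14 genes of the sterol arm. The probe sets of Scd2 and Idi1 carry more than 1 gene symbol, so neither gene is given a value.

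The kidneys came from 8 Grhl1-/- mice, replicates 8 to 15, and 7 Grhl1+/+ mice, replicates 1 to 7, all about 6 months of age and under no named treatment. Grhl1 belongs to the grainyhead-like family of epithelial transcription factors, and the design asks which kidney transcripts differ without it. The sources used here do not give the strain, the sex or how the allele was made. Each array was taken as 1 animal, so p-values measure the spread between these samples. Values are log2 summaries by robust multi-array average (RMA), in which each probe set has its own scale, so levels are not compared between genes. Differences are knockout minus wild type on the log2 scale, given with their standard error (SE) or 95% interval from limma, and group values are mean ± SD.

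Sterol regulatory element-binding proteins are membrane-bound transcription factors of the endoplasmic reticulum. Scap escorts them to the Golgi, where proteases free the active part, and Insig1 and Insig2 hold Scap back when sterols are plentiful. Srebf1 encodes the proteins best known for driving fatty acid synthesis, and Srebf2 encodes the one best known for cholesterol synthesis and uptake. In kidney these pathways supply membrane lipid to tubule cells, and raised Srebf1 activity is known from models of lipid accumulation in kidney disease.

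The samples differed in ways that touch these genes. The targeted gene Grhl1 read 5.09 ± 0.10 (n = 7) in wild type and 4.70 ± 0.16 (n = 8) in knockouts without overlap, although its difference missed the threshold in limma (adjusted p = 0.113). Kidney markers were high everywhere, with list means of 11.5 to 11.8 over 9 genes. Liver markers, 14 of 14 measured, averaged 8.86 to 10.8 in 3 kidneys (replicates 3 and 7 of the wild types, 10 of the knockouts), against 6.92 to 7.14 in the other 12 samples. Adrenal cortex markers, 9 of 10 measured, averaged 7.04 to 9.14 in 6 kidneys (replicates 2 and 3 of the wild types, 10 to 13 of the knockouts), against 4.85 to 5.21 in the other 9. In all 7 kidneys held either kind, and removing them left 4 wild-type and 4 knockout kidneys. Fat markers, 8 of 10 measured, were present in every sample, with list means of 8.14 to 8.74 in wild type and 8.33 to 9.23 in knockouts, where 7 of the 8 were higher and 1 lower. Y-linked transcripts, 3 of 4 measured, were at 8.37 to 8.68 in 10 samples, 5 of each genotype, and at 3.96 to 4.26 in the other 5, which are replicates 6, 7, 13, 14 and 15.

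Srebf1 was lower in every knockout kidney than in every wild-type kidney. Its lower level was known when the gene list was drawn up, so it is described here and not offered as a test. Srebf1 read 7.93, 7.95, 8.07, 7.90, 7.97, 7.98 and 7.85 in wild-type replicates 1 to 7. In knockout replicates 8 to 15 it read 7.59, 7.39, 7.59, 7.41, 7.60, 7.69, 7.78 and 7.70. The lowest wild-type kidney therefore lay above the highest knockout kidney, and the 5 knockouts with Y-linked transcripts lay below the 3 without them. The means were 7.95 ± 0.07 and 7.60 ± 0.14, a difference of -0.36 (95% interval -0.48 to -0.23) or 1.28-fold lower. For description only, its adjusted p over all probe sets in limma was 0.0968. Among 23521 probe sets, groups did not overlap with knockouts lower in 0.0765%.

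Without the 7 samples that hold liver or adrenal transcripts, Srebf1 read 7.95 ± 0.04 in 4 wild-type kidneys and 7.62 ± 0.17 in 4 knockout kidneys. The groups did not overlap, which was fixed in advance because they did not overlap in the full set of kidneys. At this size, groups did not overlap with knockouts lower in 0.995% of probe sets. The difference was -0.33 (95% interval -0.53 to -0.13), with a limma adjusted p of 0.991 over all probe sets. The size of the difference was thus nearly the same with and without these kidneys.

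No other regulator separated the groups. Srebf2, the sterol-directed sister gene, ranged from 9.35 to 9.75 (median 9.55) in wild type and from 9.33 to 9.73 (median 9.51) in knockouts, with a difference of -0.02 (95% interval -0.16 to 0.12). Insig1, which is itself induced by active sterol regulatory element-binding proteins, had a median of 9.65 in wild type and 9.55 in knockouts, with overlap (difference -0.16, 95% interval -0.37 to 0.05, adjusted p = 0.973). Mlxipl, the carbohydrate-responsive factor of lipogenesis, ranged from 10.1 to 10.4 in wild type and from 10.2 to 10.6 in knockouts (difference 0.10, 95% interval -0.05 to 0.24, adjusted p = 0.976). Scap differed by 0.01 and Insig2, its second retention partner, by 0.05. The median difference over the 6 regulators was -0.0048, beside 0.0083 over all probe sets.

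**Figure D1:**
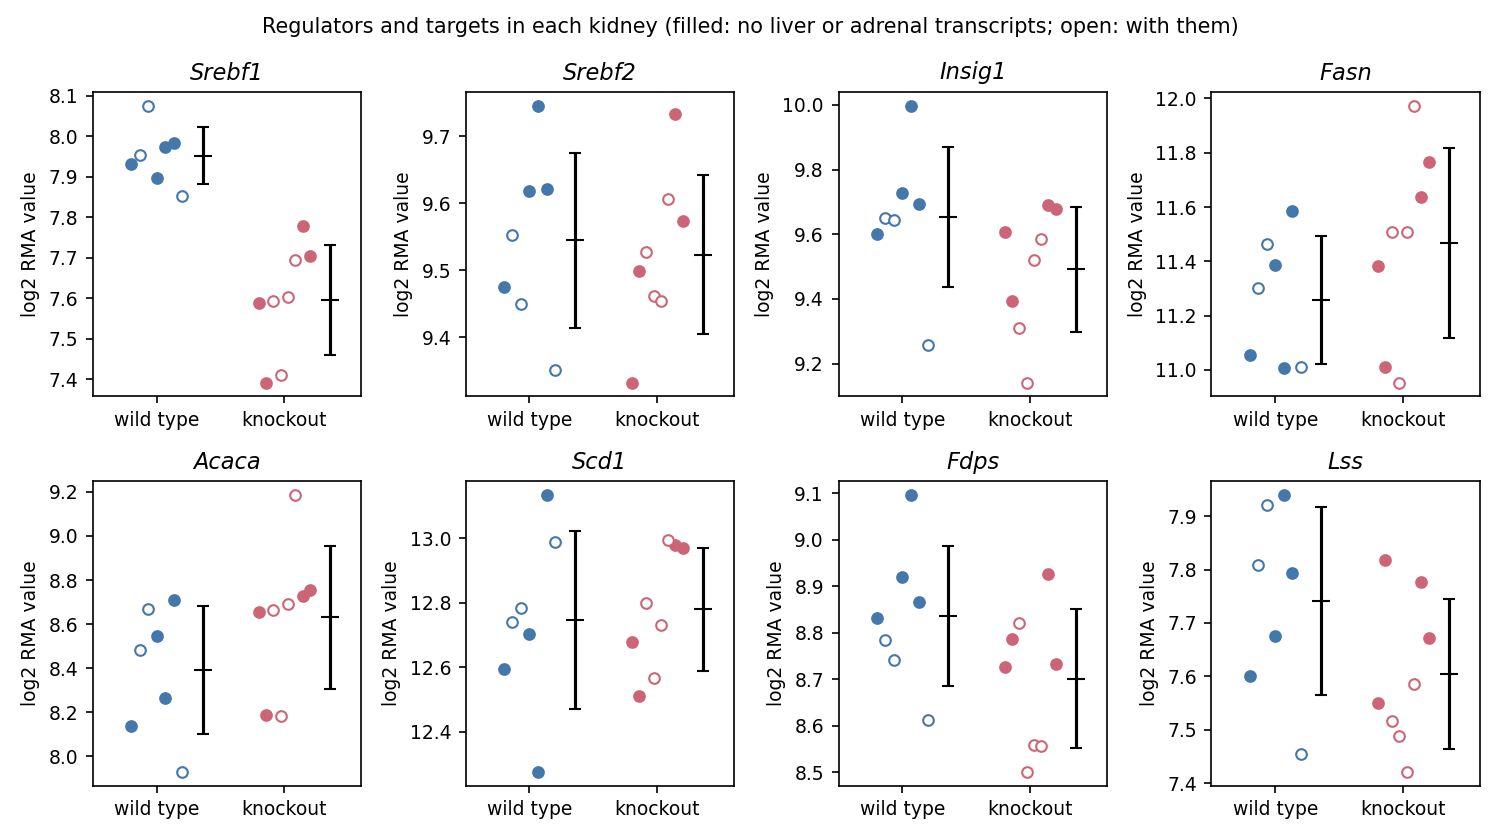
Log2 RMA values of 8 members in each kidney, wild type (blue, n = 7) and knockout (red, n = 8), with mean and SD as bars; open points are kidneys that hold liver or adrenal transcripts. Srebf1 separates the groups, at 7.85 to 8.07 against 7.39 to 7.78, while the other genes shown overlap.

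To show where the proteins made from Srebf1 and Srebf2 could act, 250 bases before RefSeq transcript starts are given for both genes, for Fasn as a target of the fatty acid arm and for Hmgcs1 as one of the sterol arm. Srebf1 is shown at the outermost and innermost of its 3 starts, chr11:60222582-60222831 and chr11:60210472-60210721 on the minus strand. Srebf2 is at chr15:82147019-82147268 on the plus strand, Fasn at chr11:120824548-120824797 on the minus strand and Hmgcs1 at chr13:119690101-119690350 on the plus strand, all in GRCm38.p6. Capitals mark a sterol regulatory element core (TCACNCCA), a CCAAT box, which binds the partner factor NF-Y, an E-box (CACGTG) or a grainyhead core (AACCGG), on either strand, so that a CCAAT box on the other strand reads ATTGG.
Srebf1 outermost start: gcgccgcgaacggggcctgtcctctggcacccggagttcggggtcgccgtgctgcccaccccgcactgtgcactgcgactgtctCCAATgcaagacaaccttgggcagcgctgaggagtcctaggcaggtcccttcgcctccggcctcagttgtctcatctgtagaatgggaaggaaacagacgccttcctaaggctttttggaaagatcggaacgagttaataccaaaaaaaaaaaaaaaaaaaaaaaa
Srebf1 innermost start: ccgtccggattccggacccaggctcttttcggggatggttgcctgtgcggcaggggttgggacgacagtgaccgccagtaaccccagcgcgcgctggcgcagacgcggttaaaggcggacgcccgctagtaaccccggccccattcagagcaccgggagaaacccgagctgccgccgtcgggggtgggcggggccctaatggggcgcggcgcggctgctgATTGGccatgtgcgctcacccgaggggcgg
Srebf2: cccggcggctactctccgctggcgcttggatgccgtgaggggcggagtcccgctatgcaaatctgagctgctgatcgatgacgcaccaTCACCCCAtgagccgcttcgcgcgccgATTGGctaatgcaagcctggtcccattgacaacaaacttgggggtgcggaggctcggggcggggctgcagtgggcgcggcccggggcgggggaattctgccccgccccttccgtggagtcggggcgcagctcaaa
Fasn: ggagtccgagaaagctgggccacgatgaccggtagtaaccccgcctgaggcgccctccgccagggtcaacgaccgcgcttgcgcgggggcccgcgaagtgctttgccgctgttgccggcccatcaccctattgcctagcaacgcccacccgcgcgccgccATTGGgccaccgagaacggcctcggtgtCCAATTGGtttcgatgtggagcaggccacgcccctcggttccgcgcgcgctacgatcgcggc
Hmgcs1: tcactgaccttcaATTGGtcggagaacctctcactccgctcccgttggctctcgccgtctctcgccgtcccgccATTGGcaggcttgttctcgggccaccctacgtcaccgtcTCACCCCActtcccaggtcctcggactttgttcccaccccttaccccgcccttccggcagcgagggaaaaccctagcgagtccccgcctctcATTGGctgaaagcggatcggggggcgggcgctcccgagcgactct
Srebf2 and Hmgcs1 each hold the element TCACCCCA. Of the motifs marked, both Srebf1 windows hold only a CCAAT box. Only exact matches to these letters were marked, so sites that vary from them are not shown. Fasn holds 3 CCAAT boxes, of which a pair overlap on opposite strands within CCAATTGG.

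RefSeq's promoter table matched 27 of the 34 members in 38 windows, which run from 250 before to 50 after a start. The sterol regulatory element core occurred in 10.5% of the members' windows and in 4.36% of all 32851 windows, and its 4 members were Srebf2, Mlxipl, Gpam and Hmgcs1. The CCAAT box occurred in 63.2% of the members' windows against 37.4% of all. By gene it was in 10 of 10 matched sterol genes and 8 of 11 matched fatty acid genes, against 11096 of all 27025 genes. The E-box occurred in 18.4% of the members' windows against 7.15% of all. The grainyhead core occurred in 5.26% against 6.83%, in the windows of Insig2 and Nsdhl, and it was not among the letters of the 3 Srebf1 windows. These matches describe letters and were not tested.

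No gene of the fatty acid arm was lower past the threshold in knockouts. Of its 13 measured genes, 9 were higher and 4 lower in knockouts, with a median difference of 0.05. Over all probe sets 45.4% were lower. Of the 26 targets in both arms 0 passed in limma, where 0.0128% of all probe sets did. At an unadjusted p under 0.05 there was 1 target, Acacb, against 5.55% of all probe sets. For 21 of the 26 targets the 95% interval of the difference lay wholly above the Srebf1 difference of -0.36, and for 25 it included 0. The Srebf1 difference has its own 95% interval of -0.48 to -0.23, and each probe set has its own scale. The count of 21 therefore cannot decide whether targets follow Srebf1.

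Means of Fasn, Acaca, Acacb and Acly were higher in knockouts, none past the threshold. Fasn, the fatty acid synthase, ranged from 11.01 to 11.58 (median 11.30) in wild type and from 10.95 to 11.97 (median 11.51) in knockouts. The groups overlapped, knockout replicates 13 to 15 lay above all wild types, and the difference was 0.21 (95% interval -0.10 to 0.51, limma adjusted p = 0.975, exact permutation p = 0.199). Acaca, the cytosolic acetyl-CoA carboxylase that makes malonyl-CoA, ranged from 7.93 to 8.71 (median 8.48) in wild type and from 8.18 to 9.19 (median 8.68) in knockouts. It also overlapped, with a difference of 0.24 (95% interval -0.07 to 0.55, adjusted p = 0.973, exact permutation p = 0.159). Acacb, the mitochondrial form, ranged from 8.08 to 8.55 in wild type and from 8.29 to 8.89 in knockouts (difference 0.20, 95% interval 0.0043 to 0.40, limma adjusted p = 0.894). Acly, which supplies cytosolic acetyl-CoA from citrate, differed by 0.08. Knockout replicate 13 had the highest fat marker mean (9.23) and the highest Fasn (11.97) and Acaca (9.19). Knockout replicate 11, with a fat marker mean of 8.72, had the lowest Fasn (10.95). Wild-type replicate 7, with a fat marker mean of 8.74, had the lowest Acaca (7.93). With the fat marker mean as a covariate Fasn differed by 0.10 and Acaca by 0.16. The part of fat tissue in these values was not tested further. Knockout replicates 13 to 15 are also the knockouts without Y-linked transcripts. Among the 10 kidneys with such transcripts (5 of each genotype) Fasn differed by 0.03 and Acaca by 0.06, and among the 5 without (2 wild types, 3 knockouts) by 0.49 and by 0.57.

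Desaturases and elongases showed no genotype difference beyond the spread. Scd1, which makes monounsaturated fatty acids, ranged from 12.28 to 13.13 (median 12.74) in wild type and from 12.51 to 12.99 (median 12.77) in knockouts (difference 0.03, 95% interval -0.21 to 0.27). Elovl6, which extends C16 chains to C18, ranged from 10.7 to 12.2 in both groups (difference 0.19, 95% interval -0.43 to 0.81). With knockout replicate 13 left out the Elovl6 difference was 0.071, and it was 0.36 with wild-type replicate 6 left out. Elovl5, Fads1 and Fads2, which make long polyunsaturated fatty acids, differed by -0.02, 0.02 and -0.02. Their intervals were -0.19 to 0.15, -0.11 to 0.15 and -0.11 to 0.08, each above the Srebf1 difference. Me1, which supplies NADPH, differed by -0.05 with a wide interval of -0.45 to 0.35, and Acss2, which activates acetate, by 0.05. Gpam, the first enzyme of triglyceride synthesis, differed by 0.12 (95% interval -0.04 to 0.28).

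Pnpla3, a lipid droplet hydrolase and a known Srebf1 target, was the fatty acid gene with the lowest difference. It ranged from 6.93 to 7.46 (median 7.09) in wild type and from 6.43 to 7.47 (median 7.01) in knockouts. Of the 8 knockouts 4 lay below every wild type and 1 above, so the groups overlapped. The difference was -0.16 (95% interval -0.49 to 0.17, limma adjusted p = 0.984, exact permutation p = 0.356). It was -0.080 without knockout replicate 9 and -0.23 without knockout replicate 13.

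No gene of the sterol arm passed in limma. Of its 13 measured genes 9 were lower and 4 higher in knockouts, beside 45.4% lower over all probe sets, and the median difference was -0.03. The split was 7 lower and 6 higher without wild-type replicate 5, with the fat marker mean in the fit, and within the kidneys without Y-linked transcripts. It was 12 lower and 1 higher without the samples with liver transcripts and with array weights. Within the kidneys with Y-linked transcripts it was 11 lower and 2 higher. Fdps, which makes farnesyl diphosphate, ranged from 8.61 to 9.10 (median 8.83) in wild type and from 8.50 to 8.93 (median 8.73) in knockouts. Its difference was -0.13 (95% interval -0.29 to 0.03, limma adjusted p = 0.951, exact permutation p = 0.106). Fdft1, squalene synthase, differed by -0.14 (95% interval -0.34 to 0.06, exact permutation p = 0.187). Lss, which closes the first sterol ring system, differed by -0.14 (95% interval -0.31 to 0.03, exact permutation p = 0.114), and by 0.01 without the 6 samples with adrenal transcripts. Mvd, the last enzyme to isopentenyl diphosphate, differed by -0.15 with a wide interval of -0.51 to 0.22, and by -0.069 without knockout replicate 13 or -0.26 without wild-type replicate 7.

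The remaining sterol genes lay within 0.06 of 0 over all 15 kidneys. Hmgcs1, which commits acetyl-CoA units to the mevalonate path, differed by -0.05 (95% interval -0.37 to 0.28). Sqle, the rate-limiting epoxidase after squalene, differed by 0.05 (95% interval -0.25 to 0.36). The kinases Mvk and Pmvk differed by -0.0003 and 0.0027, and the late enzymes Dhcr7, Sc5d, Nsdhl and Ebp by 0.0046, -0.03, 0.06 and -0.03. Stard4, a sterol carrier of the cytosol, differed by -0.05.

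Leaving out the 7 kidneys with liver or adrenal transcripts moved the median of the sterol arm from -0.03 to -0.08 and left that of the fatty acid arm at 0.05. The fatty acid arm then had 7 higher and 6 lower genes, and the sterol arm 3 higher and 10 lower, beside 46.8% lower and a median of 0.0087 over all probe sets. Fasn differed by 0.19 and Acaca by 0.17, and Elovl6 by 0.30. Gpam went from 0.12 to -0.0045 and Acss2 from 0.05 to -0.08. Among sterol genes Dhcr7 went from 0.0046 to -0.14 (95% interval -0.46 to 0.18), Hmgcs1 from -0.05 to -0.15 (-0.65 to 0.35) and Sc5d from -0.03 to -0.10 (-0.32 to 0.13). Lss went from -0.14 to -0.05, while Fdft1 went from -0.14 to -0.22 (95% interval -0.44 to 0.0094) and Fdps stayed at -0.13. In limma 0 targets passed, beside 0.00425% of probe sets, and 0 had an unadjusted p under 0.05, beside 3.87%. Of the 26 targets 17 had an interval wholly above the Srebf1 difference of -0.33 in these 8 kidneys (Srebf1 interval -0.53 to -0.13). All 26 target intervals included 0. Wild-type replicate 6 and knockout replicates 14 and 15 of these 8 lacked Y-linked transcripts, an uneven split between genotypes. With the Y-linked mean also in the fit, the fatty acid arm had a median of 0.0073, with 8 higher and 5 lower. The sterol arm then had a median of -0.04, with 5 higher and 8 lower. The part of the Y-linked split in these differences was not tested.

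**Figure D2:**
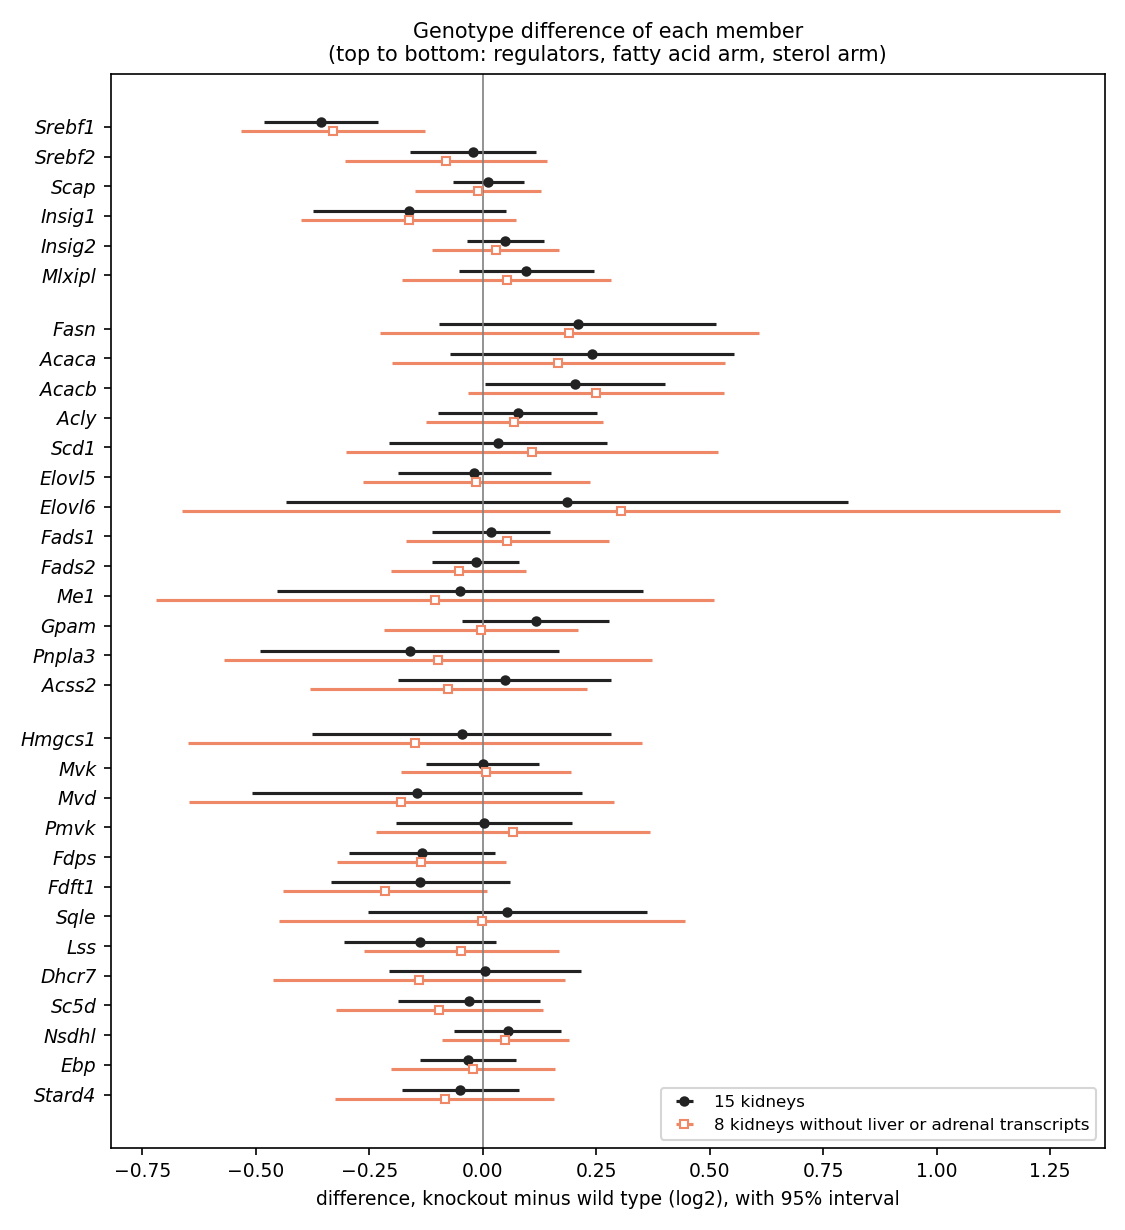
Difference of each of the 32 measured members, knockout minus wild type on the log2 scale, with its 95% interval from limma, in all 15 kidneys (black) and in the 8 without liver or adrenal transcripts (orange). Srebf1 lies at -0.36 and -0.33 with intervals below 0, and the targets scatter around 0 in both sets.

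Other genes of the same pathways, from lists drawn up by role, gave no call. Of 17 further lipogenic genes 13 were higher and 4 lower, with a median of 0.02. The elongase Elovl3, a gene of brown fat, skin and liver, ranged from 5.76 to 8.10 in wild type and from 6.82 to 8.52 in knockouts. Its difference was 1.32 (SE 0.31, limma adjusted p = 0.361, exact permutation p = 0.00435). Beside it Ucp1, the uncoupling protein of brown fat, ranged from 8.00 to 9.09 in wild type and from 8.82 to 10.8 in knockouts. Ucp1 had the highest difference of the 8 fat markers, at 1.28 (limma adjusted p = 0.274), while their median was 0.12 and Lep, the leptin gene of fat cells, was lowest at -0.68 (adjusted p = 0.610). The part of brown fat in the Elovl3 values was not tested. Lpin1, a phosphatidate phosphatase, differed by -0.40 (SE 0.14, limma adjusted p = 0.748, exact permutation p = 0.0283). Of 9 further sterol and cholesterol transport genes 8 were lower and 1 higher, with a median of -0.07, but without the kidneys with liver or adrenal transcripts 4 were lower and 5 higher. Among them the cholesterol exporter Abcg1 differed by -0.16 (SE 0.07, adjusted p = 0.896) and the methylsterol oxidase Msmo1 by -0.14 (SE 0.11, adjusted p = 0.979).

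Of 21 genes that control the proteins made from Srebf1 and Srebf2, 12 were higher and 9 lower, with a median of 0.0030. The largest differences were in Syvn1, a ubiquitin ligase of the endoplasmic reticulum, at -0.53 (SE 0.13, limma adjusted p = 0.381), and in Erlin1, a membrane scaffold that restrains sterol regulatory element-binding proteins, at 0.31 (SE 0.10, adjusted p = 0.665). Syvn1 ranged from 8.78 to 9.70 in wild type and from 8.50 to 8.83 in knockouts, and without the kidneys with liver or adrenal transcripts it differed by -0.29. Of 13 genes of fatty acid oxidation 6 were higher and 7 lower, with a median of -0.04. There Ehhadh, a peroxisomal enzyme, differed by -0.12 and Ppara, the nuclear receptor that induces the pathway, by 0.08, and neither passed.

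Several members differed more between kidneys with and without Y-linked transcripts than between genotypes. In 9 of the 32 members the 5 kidneys without such transcripts did not overlap the 10 with them, against 11.5% of all probe sets. The 9 fell on both sides. Elovl6, Scd1 and Elovl5 were higher in all 5, and Me1, Acss2, Mlxipl, Hmgcs1, Mvd and Sqle were lower in all 5. The split was read from the data and not from a label, so no test is given of the split itself. The p-values in the interaction and within the kidneys with Y-linked transcripts take that split as given, and both were computed after it was seen.

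Elovl6 ranged from 10.73 to 11.05 in the 10 kidneys with Y-linked transcripts and from 11.81 to 12.22 in the 5 without, 2.32-fold apart in the mean. Me1 ran the opposite way, at 11.67 to 11.92 against 10.95 to 11.16. Hmgcs1 was at 11.45 to 11.62 against 10.83 to 10.96, Sqle at 9.16 to 9.44 against 8.51 to 9.03 and Mvd at 8.40 to 8.81 against 7.77 to 8.23. These 3 sterol enzymes were thus low where the elongase was high. Scd1 was at 12.28 to 12.80 against 12.97 to 13.13, a smaller step. Fat marker means were 8.14 to 8.76 with Y-linked transcripts and 8.71 to 9.23 without, and their part in these steps was not tested. Of the 5 kidneys without Y-linked transcripts, replicate 7 held liver and replicate 13 adrenal transcripts. Replicates 6, 14 and 15 read 12.22, 12.09 and 12.17 for Elovl6 and 10.89, 10.83 and 10.87 for Hmgcs1.

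**Figure D3:**
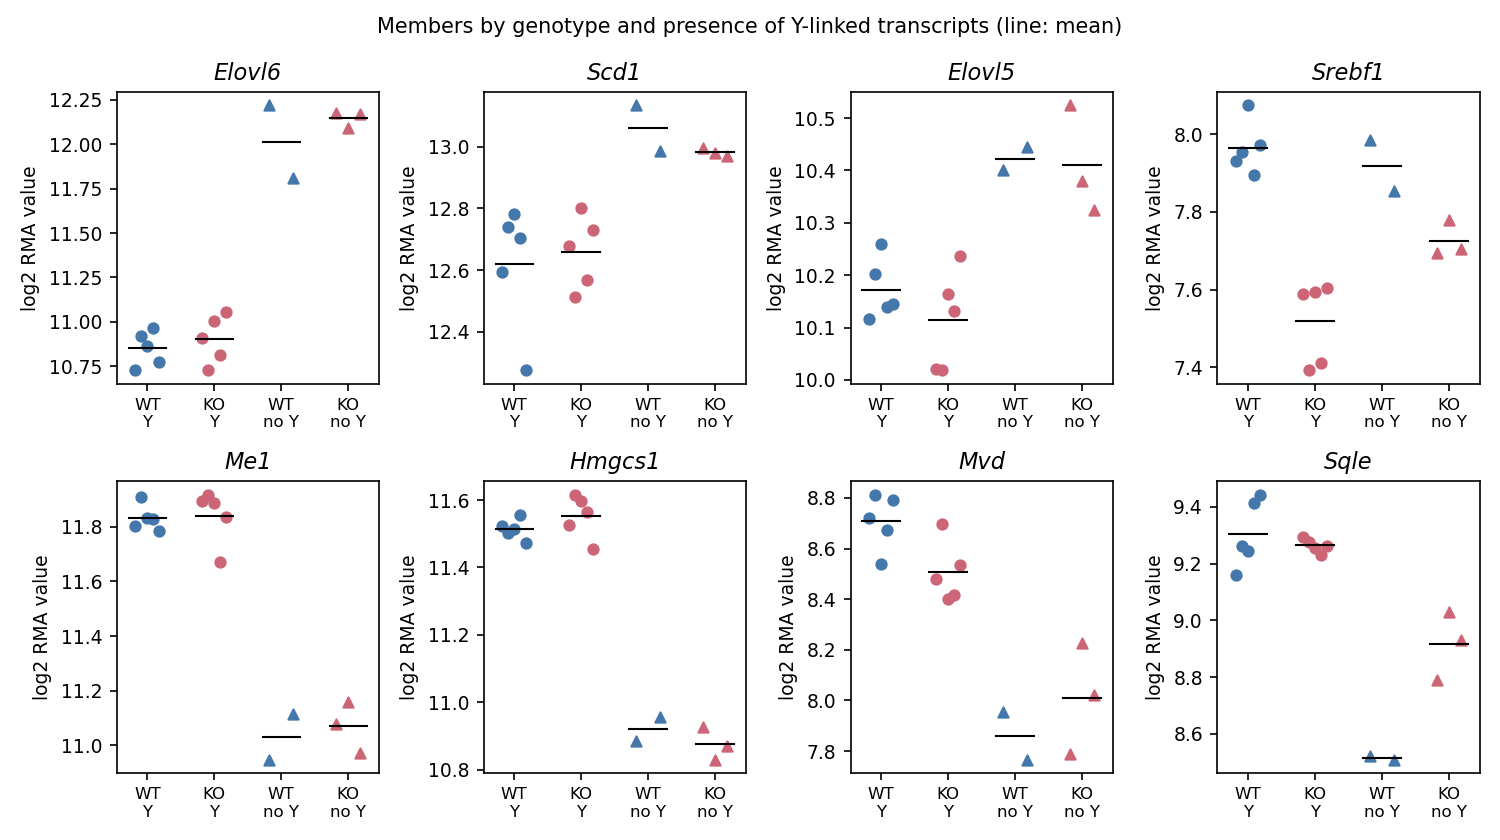
Log2 RMA values of 8 members by genotype (WT, KO) and by presence of Y-linked transcripts, 1 point per kidney with the group mean as a line (5, 5, 2 and 3 kidneys from left to right). Elovl6, Scd1 and Elovl5 are higher and Me1, Hmgcs1, Mvd and Sqle lower without Y-linked transcripts in both genotypes. Srebf1 is lower in knockouts on both sides, which its lack of overlap over all kidneys fixes in advance.

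The Srebf1 difference had the same sign on both sides of that split. That sign was fixed in advance, since every knockout lay below every wild type, so only the sizes are informative. The difference was -0.45 among the 10 kidneys with Y-linked transcripts, where knockouts reached at most 7.60 and wild types at least 7.90. Among the 5 without, it was -0.19, with knockouts at 7.69 to 7.78 and wild types at 7.85 and 7.98. The difference between these differences was -0.25 (SE 0.10), with an adjusted p of 0.658 in limma's interaction term over all probe sets. Several members had opposite signs, among them Insig1 (-0.33 with and 0.18 without), Pnpla3 (-0.37 and 0.17) and Sqle (-0.04 and 0.40). No member passed in the interaction, and neither did any probe set (0 of 23521, or 0%). At an unadjusted p under 0.05 it had 8 of 32 members and 7.04% of probe sets.

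Whether targets follow Srebf1 from animal to animal was examined within genotype over 31 members. Among the 7 wild types, where Srebf1 spanned only 7.85 to 8.07, 1 of 31 had an unadjusted exact permutation p under 0.05 and none passed after adjustment over the 62 relations of both genotypes. Among the 8 knockouts 13 of 31 had such a p under 0.05, in both directions. Of these, Insig2, Mlxipl, Acss2 and Hmgcs1 had lower values at higher Srebf1, and the others higher values. The matching share over all probe sets was not computed in either genotype. After the same adjustment 3 passed by Pearson's r (Scd1, Pnpla3 and Elovl6, each with higher values at higher Srebf1) and 0 by Spearman's rho. These 8 kidneys fell into clusters, since the 3 without Y-linked transcripts had both the highest Srebf1 and the highest Elovl6 and Scd1, so no r over all 8 is given. The wild types also held 2 kidneys without Y-linked transcripts.

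Within the 10 kidneys with Y-linked transcripts, each genotype centred on its own mean, none of 31 relations with Srebf1 passed after adjustment. The highest 3 are given first. Pearson's r was 0.81 for Acaca (exact permutation p = 0.0235, Spearman's rho 0.90, p = 0.0122), with an r of 0.70 after the 2 kidneys farthest from the median of Srebf1 were left out. It was 0.77 for Fasn (exact permutation p = 0.0401, rho 0.78, p = 0.0379, r of 0.67 after that) and 0.74 for Acly (exact permutation p = 0.0487, rho 0.73, p = 0.0460, r of 0.72 after that). Over the 31 relations of this family the adjusted p was 0.503 for r in all 3 genes and 0.377 or more for rho. The other genes of the fatty acid arm had lower r, with Pnpla3 at 0.62, Elovl6 at 0.58, Elovl5 at 0.55 and Scd1 at 0.47. Below these were Acacb at 0.37, Me1 at 0.27, Fads1 at 0.25, Acss2 at 0.23, Gpam at 0.087 and Fads2 at -0.024. The sterol arm ran from 0.39 in Pmvk to -0.55 in Hmgcs1. Knockout replicates 9 and 11 had the lowest Srebf1 (7.39 and 7.41) and the lowest Pnpla3 (6.43 and 6.47), with Fasn at 11.01 and 10.95 against 11.38 to 11.51 in knockout replicates 8, 10 and 12. Of the 10 kidneys, knockouts 10, 11 and 12 and wild types 2 and 3 held liver or adrenal transcripts. Wild type 3 held both and read highest of the wild types here in Srebf1 (8.07), Fasn (11.47) and Acaca (8.67). It was left out only together with knockout 9, in the r after 2 kidneys were removed. No relation with Srebf1 was repeated without all kidneys of this kind, so their part in r was not tested.

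**Figure D4:**
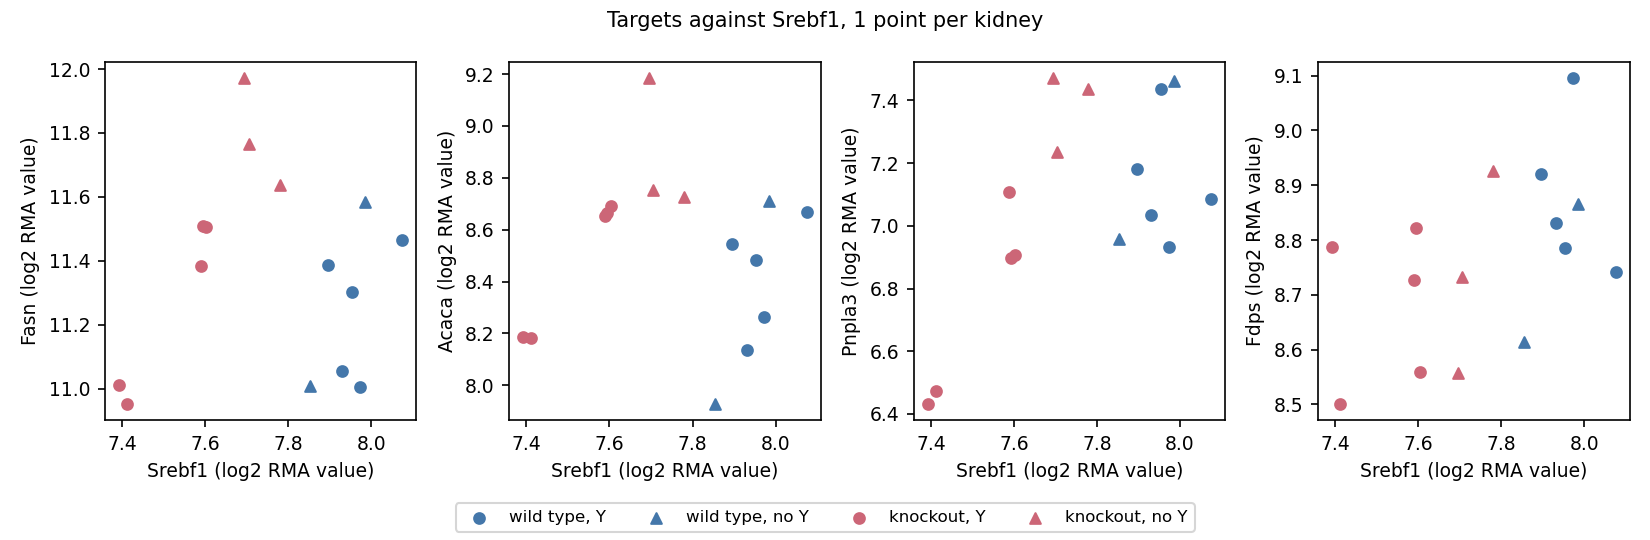
Fasn, Acaca, Pnpla3 and Fdps against Srebf1, all as log2 RMA values with 1 point per kidney, by genotype (colour) and presence of Y-linked transcripts (circle, present; triangle, absent). Knockouts lie to the left of all wild types in Srebf1, at 7.39 to 7.78, and the genotypes overlap in all 4 targets.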

How the data were processed

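Total RNA (500 ng per kidney) was labelled for a 1-colour expression array, per the labels' protocols. The deposited log2 values per probe set were made by the authors with RMA, per the submitters' processing notes. RMA gives all arrays nearly the same distribution and compresses dim probe sets, whose differences are therefore smaller than those of the RNA. The genome build and the RMA software are not given in the sources used here.

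Of 41345 probe sets, 23521 carried exactly 1 gene symbol in the platform annotation, with 1814 carrying several and 16010 unnamed. Symbols were updated by Entrez ID to RefSeq genes of GRCm38.p6 for 23328. All 23521 were fitted with limma 3.58.1 (lmFit, eBayes) in R 4.3.3, two-sided, with Benjamini-Hochberg adjustment and a threshold of 0.05. Exact permutation tests, two-sided, ran over all 6435 splits of 15 samples or all 70 of 8. Pearson and Spearman relations used exact permutations, 14400 within genotype for the kidneys with Y-linked transcripts.

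Members and lists were chosen with earlier results of these data known. All members could be named, and in each further list the 2 genes with the smallest p, since none passed. Ucp1 was the fat marker with the highest difference. Liver or adrenal transcripts were counted as present in a kidney whose marker mean lay over 1 log2 unit above the median kidney, and Y-linked ones where their mean lay above the midpoint of its range. Fewer cells of a type and less RNA per cell cannot be told apart in whole kidney. The number of arrays limits the precision.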

Additional observations from a re-analysis of the deposited data

Results flagged for a closer look

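In 4 of 64 sets of values (32 members in 2 genotypes), 1 kidney stood apart from the rest of its group by Dixon's criterion, and chance gives about 1 in 20. Insig2 was highest in knockout replicate 11 (8.30, next 8.19), and Pmvk was lowest among knockouts in the same kidney (6.40, next 6.71). Mvk was highest in wild-type replicate 5 (7.61, next 7.37). Nsdhl was lowest in wild-type replicate 7 (10.62, next 10.87), the kidney with the highest liver markers.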

How the results depend on the processing

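Over the alternatives run, the arm medians ran from 0.0073 to 0.13 for the fatty acid arm and from -0.08 to -0.00076 for the sterol arm. Each move was less than the spread between samples (pooled SD 0.13 and 0.11). That spread is larger in size than the medians themselves, 0.05 and -0.03, so it is a wide limit. Probe sets called numbered 3, and 1 without the samples with liver or adrenal transcripts, 1 within the samples without Y-linked transcripts, 14 with Y-linked transcripts in the fit, 7 with the fat marker mean in it, and 0 with dim probe sets left out or by the exact rank-sum test. Leaving out 1 sample gave 2 to 6, the 6 without knockout replicate 8. Members called numbered 0, and 1 (Srebf1) with the Y-linked mean, array weights or the fat marker mean. The lower level of Srebf1 was known when the list was drawn up, so these calls are not offered as a test. Without 1 sample Srebf1 stayed between -0.38 and -0.33, with limma adjusted p of 0.0590 to 0.242. Over all alternatives its adjusted p ran from 0.0189 to 0.9999 and its difference from -0.45 to -0.19.

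Signs turned for some small differences. Within the samples without Y-linked transcripts, Srebf2 was at 0.15, Insig1 0.18, Pnpla3 0.17, Mvd 0.15, Lss 0.054, Msmo1 0.083, Scd1 -0.079 and Ppara -0.042, and within those with them Hmgcs1 was at 0.038. With the fat marker mean as a covariate, Scd1 was at -0.068, Elovl6 at -0.090 and Hmgcs1 at 0.096. Without the liver and adrenal samples and with Y-linked transcripts in the fit, Scd1 was at -0.0039, Elovl6 at -0.012, Hmgcs1 at 0.011 and Ehhadh at 0.0082. Without the adrenal samples Lss was at 0.012. Leaving out 1 sample gave -0.054 to 0.012 for Srebf2, -0.045 to 0.098 for Scd1, -0.12 to 0.021 for Hmgcs1, 0.14 to 0.28 for Fasn, 0.16 to 0.30 for Acaca, -0.23 to -0.11 for Insig1 and -0.21 to -0.087 for Fdft1. The cause was not tested. The fat marker covariate, the Y-linked mean in the fit of the 8 kidneys, the interaction and the relations within kidneys with Y-linked transcripts were added after seeing the data. No paired analysis was possible because the genotypes share no replicate number.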
